A study of Mus musculus with 15 samples.

Results

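Splicing regulators decide which exons of a pre-mRNA are joined. SR proteins (serine/arginine-rich splicing factors) bind exonic enhancers and mostly promote exon inclusion, hnRNPs (heterogeneous nuclear ribonucleoproteins) coat the transcript and often repress nearby splice sites, PTB proteins bind pyrimidine-rich tracts, and CLK kinases phosphorylate the serine/arginine tails of SR proteins. Many of these genes limit their own output by splicing that keeps an intron or includes a poison exon, an exon with a premature stop codon that exposes the transcript to nonsense-mediated decay (NMD). The set described here was a list of 39 genes, namely 12 SR or SR-like genes, 20 hnRNP genes, 3 PTB genes and 4 CLK kinases, out of 13940 genes with a transcript listed for every mouse. The list was chosen with earlier results of these data known, so its counts beside those of all genes are descriptive. Symbols were matched to Ensembl transcript IDs through GENCODE M21 on GRCm38 (mm10). Of the 39 genes, 38 had at least 1 transcript, and Hnrnpa3 had none in the files used here. The 38 genes had 188 transcripts listed for all mice, of which 96 were annotated protein_coding, 51 retained_intron, 23 nonsense_mediated_decay and 18 processed_transcript. A further 8 were listed for part of the mice, and this followed the groups. Of these, 2 were listed for Control mice only and 6 for Ang II and Ang II + QDG mice only.

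RNA-seq was performed on kidneys of wild-type C57BL/6 mice, 15 in all and 5 per group, after 28 days of treatment. Control mice received saline, Ang II mice received angiotensin II (Ang II, a pressor hormone) at 500 ng/kg/min, and Ang II + QDG mice received the same infusion together with Qingda granule (QDG, a Chinese herbal formula) at 1.145 g/kg/day. The study's methods describe pump infusion and gavage, with vehicle given to the mice without QDG. The comparison of Ang II vs. Control addressed what the infusion changed, and Ang II + QDG vs. Ang II addressed what QDG changed during the infusion. The values were per-transcript FPKM (fragments per kilobase of transcript, scaled to library size), and the implied library totals lay between 75030500 and 81319000 for Control, 70693700 and 79280100 for Ang II and 68928700 and 76139800 for Ang II + QDG. A gene's level was the sum of its annotated transcripts listed for every mouse. Kidney markers were present in every group, with the summed level of 6 proximal tubule genes between 3116 and 4350 FPKM per mouse, whereas the lymphoid markers Cd3e and Cd79a were not listed. Ren1, whose mRNA Ang II is known to lower, averaged 33.2 ± 3.79 FPKM over the Control mice and 30.15 ± 8.97 FPKM under Ang II (SD, n = 5 per group), a difference within the spread between mice (adjusted p = 0.718 from limma). In whole kidney, fewer cells of a type and less RNA per cell cannot be told apart.

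The retained-intron transcripts called for Ptbp1, Srsf3 and Srsf6 are described below, and their exon-intron junctions are printed to show where each kept intron lies. In Ptbp1-213 (ENSMUST00000169580, chr10:79862017-79864432) the intron chr10:79862048-79862448 is kept. Srsf3-204 (ENSMUST00000147265, chr17:29032649-29042243) keeps a pair of introns, and the first, chr17:29038625-29040774, spans the poison exon of Srsf3-201. Srsf6-204 (ENSMUST00000193611, chr2:162931528-162935208) keeps chr2:162932143-162933425, which spans the poison exon of Srsf6-201. All lie on the plus strand between coding exons, and each starts with GT and ends with AG. In the first 6 lines the last or first 25 exon bases are in lower case and the adjoining 40 intron bases are in capitals. In the last 2 lines the poison exon is shown from its first base to the stop codon in capitals, in the frame of the upstream coding sequence.
Ptbp1-213 donor, chr10:79862023-79862087: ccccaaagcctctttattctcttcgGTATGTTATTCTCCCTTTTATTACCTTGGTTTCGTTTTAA
Ptbp1-213 acceptor, chr10:79862409-79862473: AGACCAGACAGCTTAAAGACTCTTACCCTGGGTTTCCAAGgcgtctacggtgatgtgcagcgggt
Srsf3-204 donor, chr17:29038600-29038664: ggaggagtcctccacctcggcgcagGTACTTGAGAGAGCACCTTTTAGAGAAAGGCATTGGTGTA
Srsf3-204 acceptor, chr17:29040735-29040799: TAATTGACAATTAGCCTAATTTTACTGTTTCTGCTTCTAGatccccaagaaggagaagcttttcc
Srsf6-204 donor, chr2:162932118-162932182: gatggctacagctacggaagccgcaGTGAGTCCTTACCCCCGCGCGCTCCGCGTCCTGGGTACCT
Srsf6-204 acceptor, chr2:162933386-162933450: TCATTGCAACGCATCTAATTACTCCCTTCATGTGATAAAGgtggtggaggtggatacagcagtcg
Srsf3-201 poison exon, chr17:29039454-29039487: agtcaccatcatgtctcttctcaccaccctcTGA
Srsf6-201 poison exon, chr2:162932815-162932966: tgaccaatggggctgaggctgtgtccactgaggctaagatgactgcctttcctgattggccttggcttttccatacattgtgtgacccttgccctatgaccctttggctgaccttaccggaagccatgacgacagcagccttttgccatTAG

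Ang II infusion was accompanied by higher mRNA levels of many of these regulators. In Ang II vs. Control, 13 of the 38 genes with transcripts passed the test at an adjusted p under 0.05 (limma on log2(FPKM + 1)), all of them higher and 0 lower, against 4.95% higher and 0.994% lower among the 12372 genes tested. All 38 had at least 1 FPKM in at least 5 mice and were tested. The median log2 fold change of the 38 was 0.311, compared with 0.0829 over all genes, and 32 of 38 were above 0 against 64.8% of all genes. At an unadjusted p under 0.05, 23 were higher (background 17.9%) and 1 was lower (background 4.83%). By class, 4 of 12 SR genes, 8 of 19 hnRNP genes, 0 of 3 PTB genes and 1 of 4 CLK genes were called. The 5 mice of each group did not overlap for 11 of the 38 genes with Ang II higher (background 6.49%) and for 1, Ptbp3, with Ang II lower (background 1.42%). The summed level of all members was 956 to 1137 FPKM in Control, 1230 to 1406 in Ang II and 1162 to 1196 in Ang II + QDG.

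**Figure D1:**
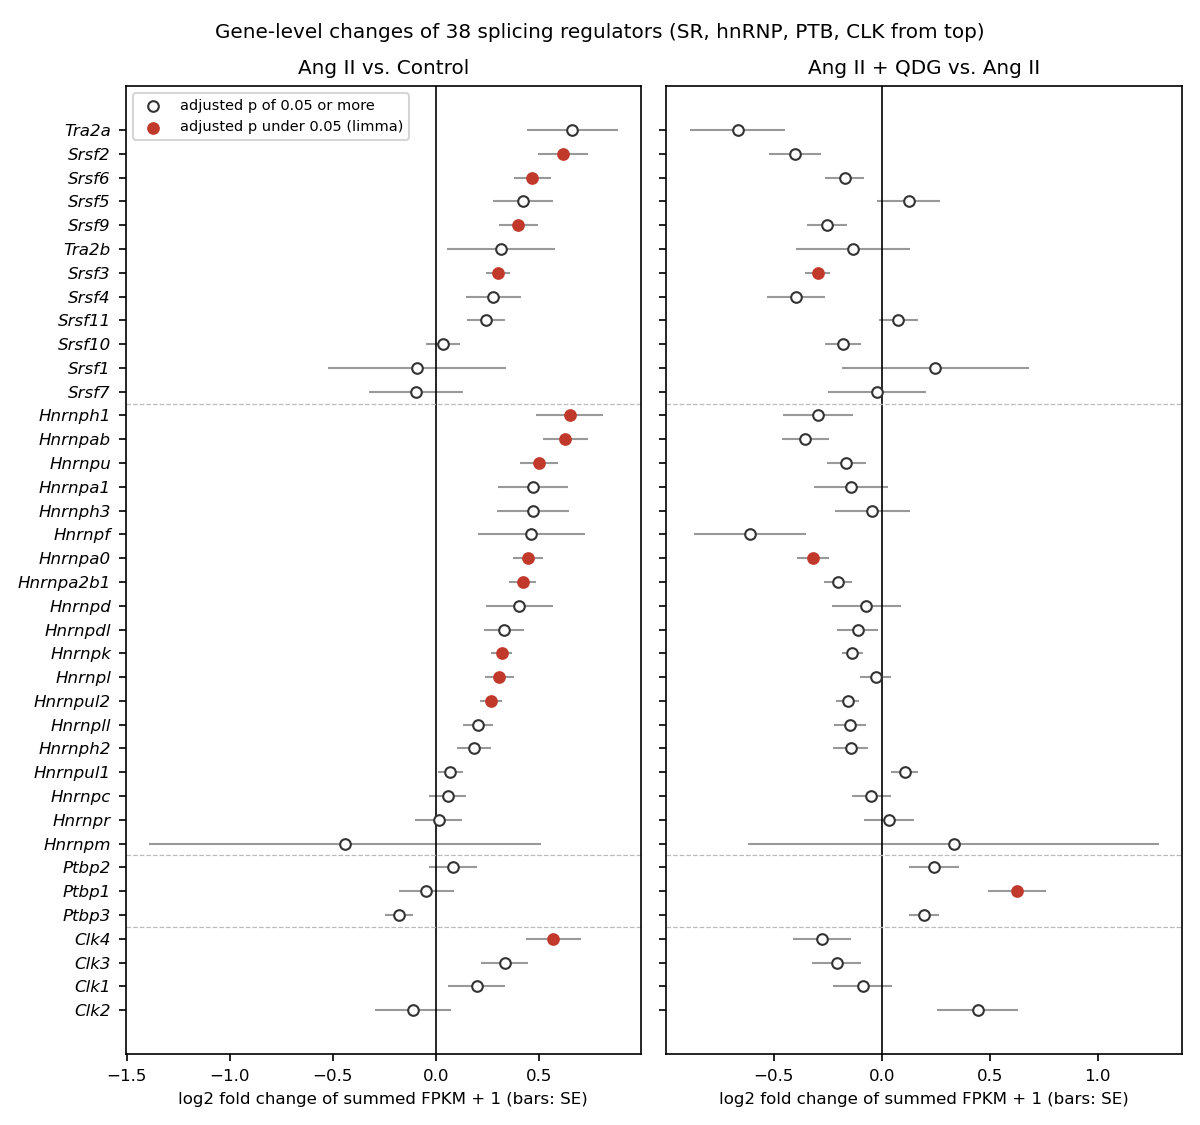
Log2 fold change of summed FPKM + 1 for the 38 genes for the infusion (left, Ang II vs. Control) and for QDG during it (right, Ang II + QDG vs. Ang II); points are estimates, bars are standard errors, and filled points have an adjusted p under 0.05 in limma. On the left, 32 of 38 points lie above 0 and the 13 filled points are all positive, whereas on the right 28 of 38 lie below 0 and 3 are filled.

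Among SR genes, Srsf2, a nuclear speckle protein that binds exonic enhancers, measured 39.2, 66.1, 53.7, 55.5 and 44.4 FPKM in the Control mice. Its level was 75.4, 89.4, 74.7, 69.2 and 86.6 FPKM in Ang II and 68.2, 59.5, 55.6, 56.4 and 57.8 FPKM in Ang II + QDG. Every Ang II mouse was above every mouse of both other groups, and the log2 fold change vs. Control was 0.62 (SE 0.12, limma adjusted p = 0.0137). Srsf6, a splicing enhancer protein also called SRp55, measured 23.6, 26.6, 22.0, 21.4 and 23.2 FPKM in Control, 29.5, 37.4, 34.2, 28.6 and 33.8 in Ang II and 32.2, 30.9, 29.9, 25.8 and 25.7 in Ang II + QDG. The Ang II mice lay above the Control mice and overlapped the Ang II + QDG mice, with a log2 fold change vs. Control of 0.47 (SE 0.089, limma adjusted p = 0.0122).

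Srsf3, the smallest SR protein, which also takes part in mRNA export, measured 32.5, 31.4, 28.7, 32.5 and 31.1 FPKM in Control. In Ang II it measured 37.1, 40.3, 40.2, 34.9 and 41.3 FPKM, and in Ang II + QDG 31.2, 30.3, 34.0, 30.3 and 31.0. The Ang II mice again stood above both other groups, and the change vs. Control was small but tight (log2 fold change 0.30, SE 0.058, limma adjusted p = 0.0120). Srsf9, an SR protein with a short arginine/serine tail, had 16.2 to 19.8 FPKM in Control and 19.2 to 28.2 in Ang II, so the groups overlapped at Ang II mouse 3 (log2 fold change 0.40, SE 0.093, limma adjusted p = 0.0253). The other 8 SR genes did not pass the test. Of these, Tra2a, which binds GAA-rich enhancers, had the largest estimate at 0.66 (SE 0.22, limma adjusted p = 0.0932), and Srsf1 and Srsf7 had estimates of −0.09 and −0.10.

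The hnRNP genes held most of the calls. Hnrnpa2b1, an A/B-type RNA-binding protein and the most abundant member, measured 197, 237, 187, 211 and 200.1 FPKM in Control, 278, 291, 261, 268 and 281 in Ang II and 247, 251, 232, 216 and 253 in Ang II + QDG. Every Ang II mouse exceeded every mouse of the other groups, and the log2 fold change vs. Control was 0.42 (SE 0.065, limma adjusted p = 0.00631). Hnrnpab, a related A/B-type protein, measured 46.9, 70.8, 75.6, 70.6 and 64.8 FPKM in Control, 96.4, 105, 109, 92.0 and 102 in Ang II and 88.6, 69.9, 79.4, 78.3 and 77.8 in Ang II + QDG. Here too the Ang II mice were above both other groups (log2 fold change vs. Control 0.63, SE 0.11, limma adjusted p = 0.00841). Hnrnpa0, which binds AU-rich elements, measured 34.1, 40.9, 35.4, 37.7 and 44.3 FPKM in Control, 52.0, 56.1, 53.0, 47.5 and 54.3 in Ang II and 44.1, 43.2, 39.1, 43.9 and 39.3 in Ang II + QDG. Its Ang II mice stood clear of both groups, with a log2 fold change vs. Control of 0.44 (SE 0.073, limma adjusted p = 0.00742).

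Hnrnpk, a KH-domain protein that binds cytosine-rich RNA, measured 54.0 to 63.2 FPKM in Control, 70.9 to 76.9 in Ang II and 64.3 to 71.1 in Ang II + QDG. The Ang II and Control mice did not overlap (log2 fold change 0.32, SE 0.050, limma adjusted p = 0.00683). Hnrnpul2, related to the chromatin-associated Hnrnpu, measured 29.1 to 34.1 FPKM in Control, 34.4 to 40.9 in Ang II and 32.2 to 34.2 in Ang II + QDG (log2 fold change vs. Control 0.27, SE 0.054, limma adjusted p = 0.0155). When only protein_coding transcripts were summed, 7 genes were called, namely Srsf2, Srsf6, Srsf9, Hnrnpa0, Hnrnpa2b1, Hnrnpab and Hnrnpul2, while 325 of 10812 genes in all were higher and 83 lower. After quantile normalization 6 genes were called higher and 1, Ptbp3, lower (log2 fold change −0.27, limma adjusted p = 0.0362), and after median scaling 8 were higher and Ptbp3 was lower (−0.26, limma adjusted p = 0.0435). Over all genes these scalings turned the balance from 612 higher and 123 lower to 190 and 262 of 12365 (quantile) and to 237 and 235 of 12359 (median).

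For 6 of the 13 genes the call rested on summing coding and noncoding transcripts together, and in Hnrnpu, Hnrnpl and Hnrnph1 the coding transcripts alone had small estimates. Hnrnpu, a scaffold attachment factor that binds chromatin and RNA, measured 13.7 to 17.9 FPKM in Control, 19.1 to 24.1 in Ang II and 15.9 to 20.8 in Ang II + QDG as a gene sum (log2 fold change vs. Control 0.50, SE 0.091, limma adjusted p = 0.0101). Its only protein_coding transcript, Hnrnpu-201, measured 7.85 to 9.29 FPKM in Control and 7.96 to 10.6 in Ang II, with a log2 fold change of 0.15 (limma adjusted p = 0.337). Hnrnpl, which binds CA repeats, rose in sum from 48.1 ± 5.13 to 59.6 ± 2.84 FPKM (SD, n = 5 each, limma adjusted p = 0.0231). Its protein_coding transcripts together stayed between 20.8 and 26.3 FPKM in Control and between 20.9 and 29.5 in Ang II, with a log2 fold change of 0.05 (limma adjusted p = 0.811), whereas its 5 retained_intron transcripts together measured 16.7 to 23.7 FPKM in Control and 25.1 to 31.9 in Ang II. Hnrnph1, which binds G runs, rose in sum from 29.5 ± 5.01 to 47.2 ± 10.6 FPKM (SD, n = 5 each, limma adjusted p = 0.0319), and its protein_coding transcripts made up 1.91 to 4.93 FPKM in Control and 3.20 to 5.43 in Ang II (log2 fold change 0.19, limma adjusted p = 0.693). The sum includes the processed_transcript Hnrnph1-217, with 213 to 746 implied reads per Control mouse. In Ang II mice 1 to 5 it had 1313, 1374, 1210, 502 and 316, so mice 4 and 5 lay within the Control range. Srsf3 and Hnrnpk had coding-only values of 0.22 and 0.26 (limma adjusted p = 0.0967 and 0.110). Clk4, a kinase of SR proteins, measured 7.08, 8.62, 6.85, 8.87 and 8.0 FPKM in Control, 10.7, 12.6, 13.9, 11.5 and 12.2 in Ang II and 12.1, 8.21, 10.5, 7.04 and 12.4 in Ang II + QDG (log2 fold change vs. Control 0.57, SE 0.13, limma adjusted p = 0.0273). The Clk4 value was 0.46 from coding transcripts alone (limma adjusted p = 0.0774) and −0.30 when only transcripts of at least 1 FPKM in every mouse were summed (limma adjusted p = 0.644).

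**Figure D2:**
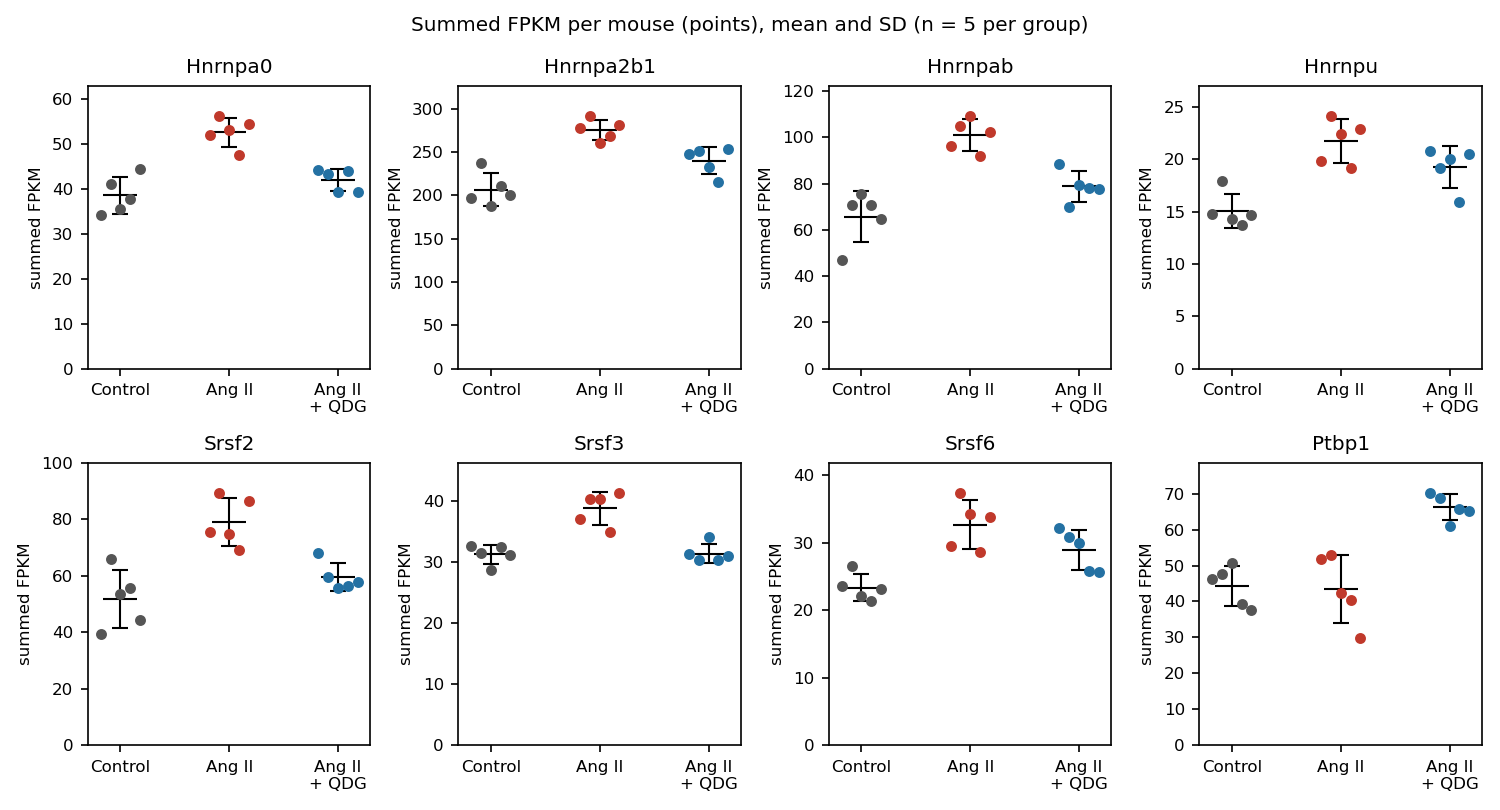
Summed FPKM of 8 genes in each mouse (points), with the mean and SD of each group (n = 5). In Hnrnpa0, Hnrnpa2b1, Hnrnpab, Srsf2 and Srsf3 all Ang II points lie above all points of both other groups, whereas in Ptbp1 all Ang II + QDG points (61.0 to 70.3 FPKM) lie above both.

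The mitochondrial share of summed FPKM over the transcripts shared by all mice differed between the groups, at 18.6% to 20.7% in Control, 15.4% to 16.02% in Ang II and 17.0% to 19.8% in Ang II + QDG. Because FPKM is relative to the whole library, the gene sums were also rescaled to the non-mitochondrial total, an alternative chosen after seeing the data. The same 13 genes were called higher in Ang II vs. Control, with log2 fold changes of 0.248 for Hnrnpul2 to 0.631 for Hnrnph1. Markers of other kidney and blood cells were read beside these calls. The summed level of the 2 intercalated-cell genes listed, of 3 sought, was 39.4 to 45.1 FPKM in Control, 47.02 to 68.1 in Ang II and 51.8 to 66.7 in Ang II + QDG, with Control below both other groups, and 1 of them was called higher in Ang II vs. Control. The sum of 3 erythroid genes spanned 394 to 966, 620 to 1164 and 859 to 1795 FPKM in the same order, and Control overlapped both other groups. The summed ranges of the proximal tubule, thick ascending limb, distal convoluted tubule, principal cell, endothelial, fibroblast and myeloid lists overlapped between Control and Ang II. Of the 4 fibroblast and pericyte genes, 1 was nevertheless called higher in Ang II vs. Control (median log2 fold change of the list 0.516). The part of these markers in the members' changes was not tested.

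In Ang II + QDG vs. Ang II, Srsf3 and Hnrnpa0 were lower and Ptbp1 was higher. These 3 calls among 38 genes compare with 1.29% lower and 0.525% higher among all genes tested. Both comparisons share the 5 Ang II mice, so the pair of results is not independent. Srsf3 was lower by 0.30 on the log2 scale (log2 fold change −0.30, SE 0.058, limma adjusted p = 0.0249) and Hnrnpa0 had a log2 fold change of −0.32 (SE 0.073, limma adjusted p = 0.0424). Of the 38 genes, 10 had an estimate above 0 against 46.3% of all genes, and the median was −0.14 compared with −0.02 over all genes. At an unadjusted p under 0.05, 12 were lower (background 10.4%) and 3 higher (background 6.01%). For 8 genes, namely Srsf2, Srsf3, Srsf4, Tra2a, Hnrnpa0, Hnrnpa2b1, Hnrnpab and Hnrnpul2, every Ang II + QDG mouse was below every Ang II mouse, against 3.44% of all genes, and Ptbp1 alone was separated in the other direction (background 1.56%). Of these, Srsf2 had −0.40 (SE 0.12, limma adjusted p = 0.105) and Hnrnpab −0.35 (SE 0.11, limma adjusted p = 0.111), so neither passed. Under quantile normalization and median scaling Ptbp1 was the gene still called, with limma adjusted p of 0.0711 and 0.0551 for Srsf3 and 0.0836 and 0.0607 for Hnrnpa0. The Hnrnpa0 call also had an adjusted p of 0.0608 after rescaling to the non-mitochondrial total. The count of 3 fell to 1 without Ang II mouse 2 or 3 or Ang II + QDG mouse 3, and to 0 without Ang II mouse 5 or Ang II + QDG mouse 2, 4 or 5. Of the marker lists above, 0 genes were called here, but both thick ascending limb genes were higher at an unadjusted p under 0.05 (median 0.807), with a summed level of 713 to 1227 FPKM in Ang II and 1143 to 1538 in Ang II + QDG. All 3 principal cell, 4 myeloid and 3 erythroid genes tested had estimates above 0 (medians 0.325, 0.317 and 0.533). Their part in the members' values was not tested.

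Ptbp1, a repressor that binds pyrimidine-rich tracts, was the only member called higher. Its gene sum was 46.2, 47.5, 50.7, 39.3 and 37.6 FPKM in Control, 51.8, 52.9, 42.2, 40.3 and 29.8 in Ang II and 70.3, 68.9, 61.0, 65.7 and 65.3 in Ang II + QDG. Every Ang II + QDG mouse was above all others, with a log2 fold change vs. Ang II of 0.62 (SE 0.13, limma adjusted p = 0.0330). The call held in 7 of 15 fits that each left out 1 mouse. Its protein_coding transcripts together did not show this: they measured 12.3 to 42.6 FPKM in Ang II and 17.9 to 41.7 in Ang II + QDG, with a log2 fold change of 0.27 (limma adjusted p = 0.729). The retained_intron transcripts together measured 8.95 to 16.6 FPKM in Control, 7.55 to 17.4 in Ang II and 23.2 to 40.3 in Ang II + QDG. Its relatives Ptbp2, mainly known from neurons, and Ptbp3 had estimates of 0.24 and 0.19 in the same comparison and did not pass (limma adjusted p = 0.325 and 0.163).

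In Ang II + QDG, 69.3% to 84.1% of that retained_intron sum was Ptbp1-213. This transcript measured 2.07, 2.14, 7.54, 1.34 and 1.97 FPKM in Control, 1.19, 2.10, 5.88, 5.48 and 4.06 in Ang II and 29.4, 19.0, 27.7, 19.5 and 25.4 in Ang II + QDG. The Ang II + QDG mice lay far above all others, at implied reads of 2888 to 4313 per mouse compared with 199 to 980 in Ang II. The log2 fold change was 2.52 vs. Ang II (SE 0.36, limma adjusted p = 0.0208) and 2.80 vs. Control (SE 0.36, limma adjusted p = 0.0175). Only 401 of its 2108 bases (19.0%) lie outside the exons of the protein_coding transcripts of Ptbp1. The other 1707 bases are shared with at least 1 of them. Among these coding transcripts, Ptbp1-202 measured 0 in Ang II mouse 5 and in Ang II + QDG mouse 3. It measured 4.33 to 37.2 FPKM in the other mice of these groups. Ptbp1-213 was the only member transcript called in Ang II + QDG vs. Ang II (1 of 141 tested, background 0.0278% higher and 0.0694% lower) and in Ang II + QDG vs. Control (background 0.0139% higher and 0.0104% lower). Under the study's rule for differentially expressed transcripts (DETs), a fold change of at least 2 with an unadjusted p under 0.05, 2 were upregulated and 2 downregulated vs. Ang II (background 0.902% and 1.33%), and 3 and 3 vs. Control (background 1.17% and 0.85%).

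**Figure D3:**
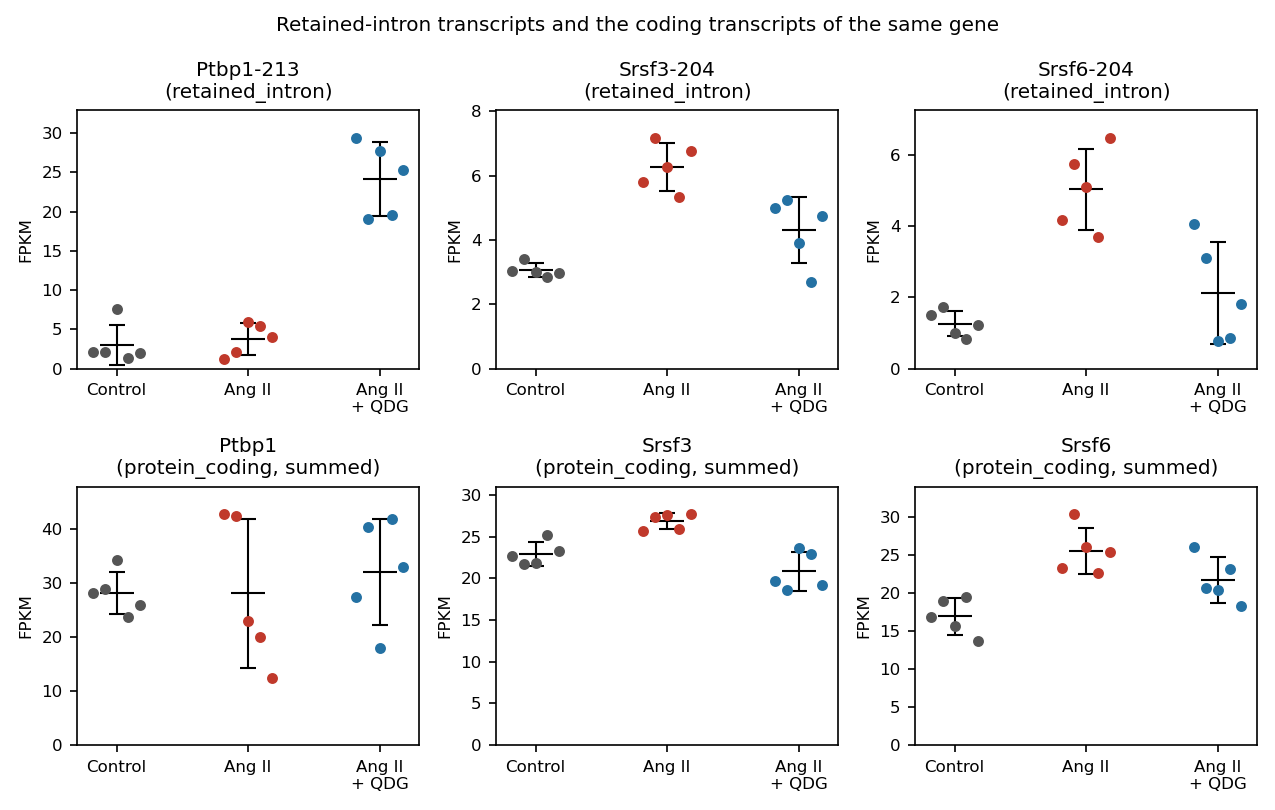
FPKM per mouse (points, with mean and SD, n = 5 per group) of 3 retained_intron transcripts (top) and of the summed protein_coding transcripts of the same genes (bottom). Ptbp1-213 is above 19 FPKM only in Ang II + QDG, where the Ptbp1 coding sum spans 17.9 to 41.7 FPKM, and Srsf3-204 and Srsf6-204 are higher in all Ang II mice than in all Control mice.

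At the level of transcripts, 9 of 141 tested member transcripts were upregulated in Ang II vs. Control and 0 were downregulated (limma adjusted p under 0.05), against 0.531% and 0.16% of the 28812 transcripts tested. Leaving out 1 mouse gave between 1 call (without Control mouse 3 or Ang II mouse 5) and 13 calls, and 2 without Control mouse 1 or Ang II mouse 2 and 5 without Control mouse 5. Under the DET rule 8 were upregulated and 1 downregulated (background 1.93% and 0.954%). With a pseudocount of 0.1 these counts were 19 and 2, and over all transcripts they went from 555 and 275 to 1422 and 446. The Srsf3 and Srsf6 transcripts shown above were among the 9. Srsf3-204 measured 3.05, 3.41, 3.00, 2.83 and 2.98 FPKM in Control, 5.79, 7.17, 6.27, 5.34 and 6.78 in Ang II and 4.99, 5.24, 3.89, 2.68 and 4.73 in Ang II + QDG. The Ang II mice were above both other groups (log2 fold change vs. Control 0.84, SE 0.14, limma adjusted p = 0.0210), and 63.4% of its length lies outside coding exons. The coding transcript Srsf3-202 measured 21.7 to 25.2 FPKM in Control, 25.7 to 27.7 in Ang II and 18.7 to 23.7 in Ang II + QDG, and its value vs. Ang II was −0.36 (SE 0.078, limma adjusted p = 0.0836).

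Srsf6-204 measured 1.501, 1.72, 1.01, 0.836 and 1.23 FPKM in Control, 4.15, 5.74, 5.10, 3.69 and 6.47 in Ang II and 4.05, 3.11, 0.771, 0.856 and 1.82 in Ang II + QDG. All Ang II mice exceeded all Control mice, and Ang II + QDG mice 3 and 4 lay at the Control level while mouse 1 lay within the Ang II range. The log2 fold change was 1.41 vs. Control (SE 0.27, limma adjusted p = 0.0346), and −1.05 for Ang II + QDG vs. Ang II (SE 0.27, limma adjusted p = 0.137), which did not pass. The coding transcript Srsf6-203 was also higher in Ang II, at 22.6 to 30.3 FPKM compared with 13.6 to 19.5 in Control (log2 fold change 0.57, SE 0.12, limma adjusted p = 0.0462). The NMD transcript Srsf6-201, which holds the poison exon, measured 1.14 to 8.31 FPKM in Control and 1.36 to 3.00 in Ang II, with overlapping groups.

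The other 6 called transcripts were protein_coding or processed_transcript. Hnrnpab-203 was the clearest, at 45.0, 49.9, 51.6, 51.7 and 56.1 FPKM in Control, 72.8, 79.4, 86.5, 71.0 and 78.8 in Ang II and 65.0, 50.02, 56.8, 55.9 and 57.4 in Ang II + QDG. Its Ang II mice stood above both other groups (log2 fold change vs. Control 0.60, SE 0.080, limma adjusted p = 0.00977), and vs. Ang II the Ang II + QDG value was −0.44 (limma adjusted p = 0.0578). Hnrnpk-210, a minor coding transcript of Hnrnpk, measured 1.23 to 1.75 FPKM in Control, 3.48 to 5.62 in Ang II and 1.354 to 3.29 in Ang II + QDG, so the Ang II mice were again above both groups (log2 fold change vs. Control 1.09, SE 0.17, limma adjusted p = 0.0175). Hnrnpu-205, a processed_transcript, measured 5.09 to 7.92 FPKM in Control, 8.92 to 12.1 in Ang II and 7.64 to 10.7 in Ang II + QDG (log2 fold change vs. Control 0.73, limma adjusted p = 0.0223). Hnrnpa2b1-204, Hnrnpa2b1-210 and Hnrnpa0-201, all protein_coding, had log2 fold changes of 0.42, 0.35 and 0.44 (limma adjusted p = 0.0213, 0.0373 and 0.0214).

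Estimates were described by transcript class, and differences between classes were not tested. In Ang II vs. Control, 30 of 33 tested member retained_intron transcripts had an estimate above 0 (median 0.365), compared with 79.1% of all retained_intron transcripts (median 0.302). All 13 member processed_transcript entries were above 0 (median 0.61), compared with 69% (median 0.19). Several of these entries came from Hnrnph1 and several from Clk1, so they do not stand for as many genes. Member protein_coding transcripts were above 0 in 55 of 79 (median 0.182, all protein_coding 58.6% and 0.0579), and NMD transcripts in 12 of 16 (median 0.175, all NMD 64.9% and 0.167). The filter on level can admit a transcript through the group where it is high, in members and in all transcripts alike. An example is the NMD transcript Hnrnpu-208, at 0.321 to 0.483 FPKM in Control and 0.395 to 1.17 in Ang II. The sign of such a transcript is not independent of the filter. With QDG set against Ang II alone, the shares above 0 were 27.3% of retained_intron, 15.4% of processed_transcript and 40.5% of protein_coding member transcripts, compared with 33.5%, 38.5% and 49.1% over all transcripts. The summed retained_intron level of the members was 89.6 to 116 FPKM in Control, 130 to 179 in Ang II and 101 to 189 in Ang II + QDG.

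Within genes, the ratio of retained_intron plus NMD to coding forms did not pass the test in any member it could be taken for. The ratio of retained_intron plus NMD to protein_coding FPKM, taken as log2 with 1 added to both, was tested for 21 members, and 0 were called by limma in any of the 3 comparisons (background 0.17%, 0.0424% and 0.127%). Processed_transcript entries, such as those of Hnrnph1 and Hnrnpu-205, were not part of this ratio. At an unadjusted p under 0.05, 2 members were higher and 0 lower in Ang II vs. Control (background 16.6% and 1.7%), 0 higher and 1 lower when Ang II + QDG was set against Ang II (2.16% and 6.11%), and 2 higher and 0 lower when it was set against Control (7.72% and 1.78%). In Ang II vs. Control these were Hnrnpu (0.55, SE 0.20, limma adjusted p = 0.177) and Srsf1 (1.86, SE 0.69, limma adjusted p = 0.182). Srsf1 was also the gene under that unadjusted threshold when Ang II + QDG was set against Ang II (−1.79, SE 0.69, limma adjusted p = 0.490). Hnrnpu and Srsf2 had values of 0.47 and 0.44 in Ang II + QDG vs. Control (limma adjusted p = 0.468 and 0.484). The median of the 21 members in Ang II vs. Control was 0.202, compared with 0.277 over the 2356 genes tested, so the members' median was below that of all genes.

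Over all genes, the share of annotated FPKM in retained_intron transcripts was 2.17, 2.39, 2.27, 2.09 and 2.32% in the Control mice, 2.69, 3.26, 3.07, 2.78 and 3.16% in Ang II and 3.05, 2.75, 2.43, 2.01 and 3.01% in Ang II + QDG. The Ang II and Control mice did not overlap, and their means were 0.739 points apart (p = 0.00794 in an exact two-sided permutation test, which is the smallest that 5 against 5 mice can give, adjusted p = 0.0159 over 6 tests). The difference of Ang II + QDG vs. Ang II was −0.337 points (exact permutation test, p = 0.167). The NMD share rose by 0.144 points in Ang II vs. Control and was lower by 0.121 points in Ang II + QDG vs. Ang II (−0.121, exact permutation tests, adjusted p = 0.0159 each). Over transcripts of at least 1 FPKM in every mouse these differences were 0.0385 and −0.0432, and neither passed. Of a list of 9 RNAs chosen as nuclear or noncoding, 6 were listed, and their summed level was 39.4 to 156 FPKM in Control, 167 to 370 in Ang II and 127 to 278 in Ang II + QDG. Of the 4 tested, 1 was called in Ang II vs. Control, namely Neat1, a paraspeckle RNA, which measured 4.27 to 42.6, 54.2 to 197 and 75.8 to 131 FPKM in the same order (limma adjusted p = 0.0318). Malat1, a nuclear speckle RNA, measured 0.289 to 81.8, 97.8 to 165 and 3.71 to 114 FPKM and did not pass (limma adjusted p = 0.319). Gas5 and Snhg1, spliced host genes of small nucleolar RNAs, had means of 20.7 and 6.34 FPKM in Control and 23.6 and 5.85 in Ang II. The part of these RNAs in the members' changes was not tested.

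In Ang II + QDG vs. Control, 0 of 38 gene sums were called by limma (background 0.097% higher and 0.0323% lower), and 15 were higher and 0 lower at an unadjusted p under 0.05 (background 10.7% and 3.72%). The lowest p-values belonged to Ptbp1 (log2 fold change 0.58, SE 0.13, limma adjusted p = 0.0965), Hnrnpl (0.28, SE 0.070, limma adjusted p = 0.113), Srsf5 (0.54, SE 0.15, limma adjusted p = 0.129), Hnrnpu (0.33, limma adjusted p = 0.130) and Hnrnpk (0.18, limma adjusted p = 0.132). Srsf5, an SR protein of the SRp40 type, measured 9.20 to 11.9 FPKM in Control, 10.8 to 19.1 in Ang II and 13.0 to 21.5 in Ang II + QDG, where every mouse was above the Control mice. Groups did not overlap for 5 genes, all higher in Ang II + QDG (background 2.78% higher and 0.857% lower). All 3 erythroid marker genes were higher here at an unadjusted p under 0.05 in limma (median log2 fold change 1.08), and 1 was called. The part of these markers in the members' values was not tested. Among transcripts, Hnrnph1-213 measured 2.44 to 4.56 FPKM in Control and 5.96 to 7.56 in Ang II + QDG (log2 fold change 0.92, SE 0.15, limma adjusted p = 0.0698), and Srsf10-203, from a gene that represses splicing under stress, measured 1.77 to 3.18 FPKM in Control and 1.09 to 1.42 in Ang II + QDG (−0.68, SE 0.14, limma adjusted p = 0.132).

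Which transcript carried a gene's signal differed between mice of the same group. Among 50 member transcripts with at least 10 FPKM in some mouse, 12 (24%) fell below 1 FPKM in a group mate, compared with 27.2% of all transcripts. Hnrnpm, which binds GU-rich RNA, was the extreme case. Hnrnpm-201 measured 32.0 FPKM in Control mouse 3, 43.1 in Ang II mouse 3 and 45.4, 41.0 and 42.3 in Ang II + QDG mice 2, 3 and 5, and at most 0.102 in the other 10 mice. Hnrnpm-205 measured 15.7 to 24.9 FPKM in 8 of these 10 mice and 0 in Ang II mouse 4 and Ang II + QDG mouse 1, so that no mouse had both above 1 FPKM. The gene sum of Hnrnpm was then 0.560 FPKM in Ang II mouse 4 and 0.783 in Ang II + QDG mouse 1 and 16.9 to 46.2 elsewhere, and its log2 fold change vs. Control of −0.44 had an SE of 0.95.

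Hnrnpr, a relative of Syncrip, kept its sum while its transcripts exchanged. Hnrnpr-202 measured 10.7, 13.8, 1.28, 1.36 and 3.43 FPKM in Control and 8.72 to 12.4 in Ang II, and Hnrnpr-204 measured 1.34, 1.22, 9.30, 11.4 and 11.1 in the same Control mice and 1.25 to 1.72 in Ang II. Both met the DET rule in Ang II vs. Control, in opposite directions (log2 fold change 1.20 and −1.31, limma adjusted p = 0.206 and 0.168), although Control mice 1 and 2 looked like the Ang II mice. The gene sum was 13.3 ± 1.88 FPKM in Control and 13.4 ± 1.73 in Ang II (SD, n = 5 each). Hnrnpf, a G-run binding protein, divided its signal among 4 coding transcripts, with Hnrnpf-201 at 50.7 to 58.3 FPKM in 4 Ang II mice and at 3.20 in Ang II mouse 2, where Hnrnpf-209 measured 52.4.

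**Figure D4:**
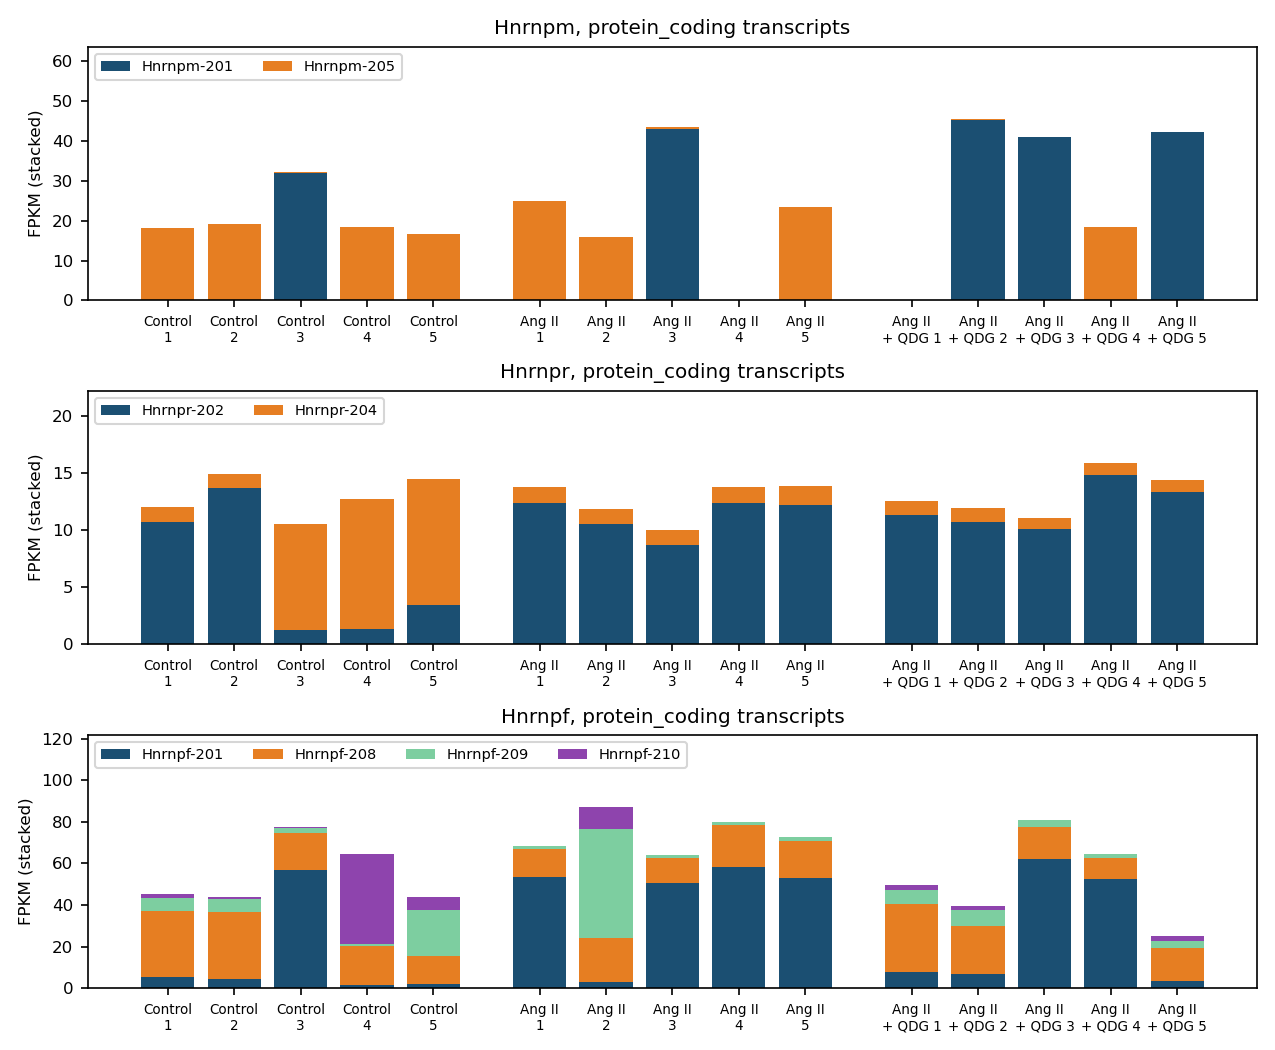
Stacked FPKM of protein_coding transcripts of Hnrnpm, Hnrnpr and Hnrnpf in each of the 15 mice, with 1 bar per mouse. Hnrnpm switches between Hnrnpm-201 and Hnrnpm-205 and is near 0 in Ang II mouse 4 and Ang II + QDG mouse 1, Hnrnpr-204 leads in Control mice 3, 4 and 5 only, and Hnrnpf-201 is high in 1 mouse of Control, 4 of Ang II and 2 of Ang II + QDG.

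Other parts of the splicing machinery were described with the same fit. Over all genes tested, 4.95% were higher and 0.994% lower in Ang II vs. Control, with a median of 0.0829, a balance that the scalings given above turned. Of 79 core spliceosome genes, 7 were higher and 0 lower (median 0.0967), including Sart1, a protein of the tri-snRNP (0.50, limma adjusted p = 0.00564), and Snrnp35, of the minor spliceosome (0.50, limma adjusted p = 0.0111). Of 39 tested regulators outside the list, 7 were higher and 0 lower (median 0.308). Srrm2, a large scaffold of nuclear speckles, went from 1.81 ± 0.898 to 22.9 ± 8.03 FPKM (SD, n = 5 each, limma adjusted p = 0.00640) and Elavl1, the RNA-stabilizing protein HuR, had a log2 fold change of 0.83 (limma adjusted p = 0.0429). Of 16 tested NMD factors 0 were called by limma, and 5 were higher at an unadjusted p under 0.05 (median 0.217, background 17.9%), with Upf3a lowest in p (0.28, limma adjusted p = 0.0574). In Ang II + QDG vs. Ang II, 0 genes of these 3 lists were called, and 2, 2 and 0 were higher and 11, 1 and 1 lower at an unadjusted p under 0.05, against 6.01% higher and 10.4% lower over all genes.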

How the data were processed

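Kidney RNA from 15 mice was sequenced after rRNA depletion per the labels; the study's methods also name a poly(A) step. The files deposited by the authors give every transcript a value in each mouse, taken here as FPKM, made before deposit by dividing read counts by transcript length and library size. The unit is not stated and was inferred, since multiplying by length gave whole steps of a mouse-specific constant (tolerance 0.05) for 98.5% to 98.7% of values under 200 reads. The submitters' processing notes name mm10 and limma, and other tools are not given in the sources used here. Control files list 41477 transcripts and the others 42310, so an effect of the list on comparisons with Control cannot be told apart from treatment. The 40054 shared ones were used, and 31254 of 31301 Ensembl IDs matched GENCODE M21. Gene sums, ratios and biotype shares used only the 28871 shared transcripts with a GENCODE match. Transcripts without a match entered no gene sum, but 7818 of them were among the 28812 transcripts tested.

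Gene sums, transcripts and noncoding ratios were tested with limma 3.58.1 (R 4.3.3) on log2(FPKM + 1) in 1 fit of all mice with a mean-variance trend and 12 residual degrees of freedom, for features reaching 1 FPKM in 5 or more mice, with Benjamini-Hochberg adjustment over all features. The pseudocount of 1 lowers the fold changes of low features. Biotype shares were compared with exact permutation tests. The p-values set differences between groups against the spread between mice of the same group. The script was tested on simulated data. Named genes were members called at any level plus the 5 lowest p-values per comparison and level, and up to 5 genes per other list. Members and lists were chosen with earlier results of these data known. Transcripts of 1 gene share reads, so their estimates are not independent. Figures were drawn with matplotlib 3.10.9. A few marker and list genes, and the sum of a marker list that needs one of them, are not reported here.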

Additional observations from a re-analysis of the deposited data

Results flagged for a closer look

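Of 165 groups of 5 values examined, 7 (4.24%) held 1 mouse whose gap to the nearest other mouse exceeded Dixon's 95% limit, and chance flags about 1 in 20. Control mouse 2 accounted for 4 of them, with a summed SR level of 235 FPKM against 190 to 196 FPKM in the other Control mice, a summed CLK level of 44.5 FPKM against 34.2 to 37.1 FPKM, an Hnrnpu gene sum of 17.9 FPKM against 13.7 to 14.7 FPKM and Hnrnpu-205 at 7.92 FPKM against 5.09 to 5.78 FPKM. All 4 values lie toward or within the range of the Ang II mice. Ptbp1-213 measured 7.54 FPKM in Control mouse 3 against 1.34 to 2.14 FPKM in the other Control mice. Srsf3 measured 34.0 FPKM in Ang II + QDG mouse 3 against 30.3 to 31.2 FPKM. The log2 noncoding ratio of Hnrnpdl was −1.30 in Ang II + QDG mouse 2 against −0.596 to −0.416.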

How the results depend on the processing

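In Ang II vs. Control, quantile normalization and summing only protein_coding transcripts each gave 7 calls in place of 13 (6 higher and 1 lower, and 7 higher), while all genes went from 612 higher and 123 lower to 190 and 262 and to 325 and 83. Quantile normalization moved the median of all genes from 0.0829 to −0.04. In Ang II + QDG vs. Ang II, quantile normalization and median scaling each left 1 call, Ptbp1. In Ang II + QDG vs. Control, summing only transcripts of at least 1 FPKM in every mouse gave 1 call, Ptbp1. The last setting, chosen for gene sums after seeing the data, also gave NMD share differences of 0.0385 (Ang II vs. Control) and −0.0432 (Ang II + QDG vs. Ang II), neither past the threshold, and −0.00471 (Ang II + QDG vs. Control, 0.0225 before). The sign turned for Clk4 (gene sums, AngII vs Control, −0.295), Hnrnpu with protein_coding transcripts only (gene sums, AngII+QDG vs Control, −0.0248), and, with NMD alone over protein_coding, the ratios of Ptbp1 (−0.379 vs. Ang II and −0.149 vs. Control) and Hnrnpa2b1 (−0.0653 vs. Control). The cause was not tested.

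Leaving out 1 mouse gave 10 to 16 called gene sums in Ang II vs. Control, 0 to 4 in Ang II + QDG vs. Ang II and 0 to 2 in Ang II + QDG vs. Control, where 2 were called without Control mouse 2 and 1 without Ang II mouse 5. For transcripts it gave 1 to 13, 0 to 2 and 0 to 2. The Ptbp1-213 call was lost vs. Ang II without Ang II mouse 2 or Ang II + QDG mouse 3, and vs. Control without Control mouse 1 or 4 or Ang II + QDG mouse 1. The noncoding ratio gave 0 throughout. The retained_intron share differences ranged from 0.672 to 0.814, from −0.435 to −0.177 and from 0.304 to 0.562 (past the threshold only without Ang II + QDG mouse 4), and the NMD share differences from 0.126 to 0.153, from −0.139 to −0.103 and from 0.00522 to 0.0360. Srsf2, Srsf6, Hnrnpa0, Hnrnpa2b1 and Hnrnpab were called higher in Ang II vs. Control in all 23 alternatives. No paired analysis was possible because the labels give the groups no shared replicate numbers. With a pseudocount of 0.1 in place of 1, member transcripts meeting the DET rule numbered 2 up and 4 down in Ang II + QDG vs. Ang II (2 and 2 before, all transcripts 467 and 691 after 260 and 384) and 8 up and 5 down in Ang II + QDG vs. Control (3 and 3 before, all transcripts 810 and 401 after 337 and 245).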
